A study of Mus musculus with 8 samples.

Results

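The serotonin receptor genes Htr1a, Htr1b, Htr2a, Htr2c, Htr3a, Htr4, Htr5a, Htr5b, Htr6 and Htr7 were chosen by name. The rule used no measured value, but earlier results of these data were known. These genes were read by 15 probes of the 55681 on a one-colour Agilent mouse array, and all 10 genes had at least 1 probe. Total RNA came from the hippocampus of female C57BL6/J mice aged 8 weeks that had been kept for 4 weeks in an enriched environment, housing with added stimulation. Of the 8 samples, 4 came from mice given an anti-CD4 antibody, directed at the surface protein of helper T cells, and 4 from mice given a control antibody. Strain, sex, age and housing were common to both groups, and no group was housed without enrichment. No label states whether each sample is its own animal. The p-values therefore measure sample-to-sample spread alone, and part or all of it may be technical. Depletion of CD4+ cells was not measured in these data.

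Serotonin reaches the hippocampus through axons of the raphe nuclei in the brainstem, and the cells that receive it carry several receptor types. The HTR1 and HTR5 receptors couple to Gi/o proteins, which lower cyclic AMP and, in many neurons, open potassium channels of the GIRK family. The HTR2 receptors couple to Gq and phospholipase C, and HTR4, HTR6 and HTR7 couple to Gs and raise cyclic AMP. HTR3A is the exception, a subunit of a cation channel opened directly by serotonin.

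The array reads each gene through probes of 60 bases, each present as 1 spot, and some receptors had a probe above background and another that was not. The letters of some of the probes that lie in coding sequence are shown because they include both kinds. They are written as in the transcript, 5′ to 3′, and capitals mark a stop codon at the end of a reading frame.
Htr1b A_52_P103998: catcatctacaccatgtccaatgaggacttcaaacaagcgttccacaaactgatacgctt
Htr2c A_55_P2068461: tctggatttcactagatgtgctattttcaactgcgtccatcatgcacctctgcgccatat
Htr2c A_55_P2158921: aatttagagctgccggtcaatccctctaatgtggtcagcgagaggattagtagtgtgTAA
Htr6 A_51_P183497: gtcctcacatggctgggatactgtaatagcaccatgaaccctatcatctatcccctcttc

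On mm9, the build of the files, the Htr1b probe lies at chr9:81525015-81525074 on the minus strand and the Htr6 probe at chr4:138617683-138617742 on the minus strand. The first Htr2c probe lies at chrX:143604149-143604208 and the second at chrX:143629079-143629138, both on the plus strand. They begin at bases 1076 and 2008 of the transcript, 932 bases apart, against 24930 bases in the genome, so an intron lies between them. The third Htr2c probe, A_55_P1977503 (chrX:143631655-143631714), begins at base 4584 of the transcript. Its distance of 2576 bases from the probe that ends in the stop codon is the same in transcript and genome, which places it in the 3′ untranslated region of the last exon.

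A probe was called detected on an array where the scanner software marked it well above background, and it was tested where this held on at least 4 of the 8 arrays. Of the 15 receptor probes, 9 were tested, for 8 of the 10 genes, and 8 of those 9 were detected on all arrays. Htr1b, the receptor of serotonin axon terminals, was detected on no array by its only probe, and Htr5a, a Gi/o-coupled receptor, was detected on control replicate 3 alone. For Htr4, Htr6 and Htr7 the second probe was detected on 0, 0 and 1 arrays. That second Htr7 probe (A_55_P2177309, chr19:36038872-36038931, minus strand) gave a processed signal of 109.1 on the array of control replicate 1, while the remaining arrays gave 8.38 to 11.3. The Htr2c probe at the stop codon was detected on anti-CD4 replicate 3 only, whereas both other Htr2c probes were detected on all arrays. The tested Htr6 probe only just met this rule, with 2 control and 2 anti-CD4 arrays above background. A probe below background does not show that the transcript was absent.

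The share of spots well above background was 52.3% to 55.4% on each array, with no saturated spot. All arrays lay on 1 slide and came from 1 scan, with the anti-CD4 arrays in slide row 1 and the control arrays in row 2, so that slide row and antibody cannot be told apart. Markers of the labelled tissue were measured, with 9 of 10 genes of dentate granule neurons, 8 of 8 of CA1 and 8 of 8 of CA2 and CA3 neurons passing the filter. Levels are given as log2 processed signal after subtraction of the 75th percentile of its array, and each difference is the anti-CD4 mean less the control mean. In bulk tissue, fewer cells of a type and less RNA per cell cannot be told apart.

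Across the receptors the anti-CD4 group was lower for 5 tested probes and higher for 4, and no probe passed an adjusted p of 0.05 in limma (adjusted p from 0.243 to 0.935). Over all 29403 tested probes this threshold called 0% as well. An unadjusted p under 0.05 was reached by 2 of the 9 receptor probes, those of Htr1a and Htr5b, against 13% of all tested probes, 6.99% lower and 5.98% higher in the anti-CD4 group. That count was 4 of 9 with Ttr, a choroid plexus gene, as a covariate, where Htr2a and an Htr2c probe were added. It was also 4 without anti-CD4 replicate 3, where Htr2a and Htr7 were added. Over all 29403 tested probes the count was 3812, or 3867 with Ttr as a covariate and 2719 to 4612 without single arrays. The 2 probes of Htr1a and Htr5b had groups that did not overlap, both lower in the anti-CD4 arrays. Over all tested probes this held for 8.21% in either direction, 4.43% lower and 3.78% higher. The median difference of the 9 probes was -0.02, beside 0.0046 over all tested probes.

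**Figure D1:**
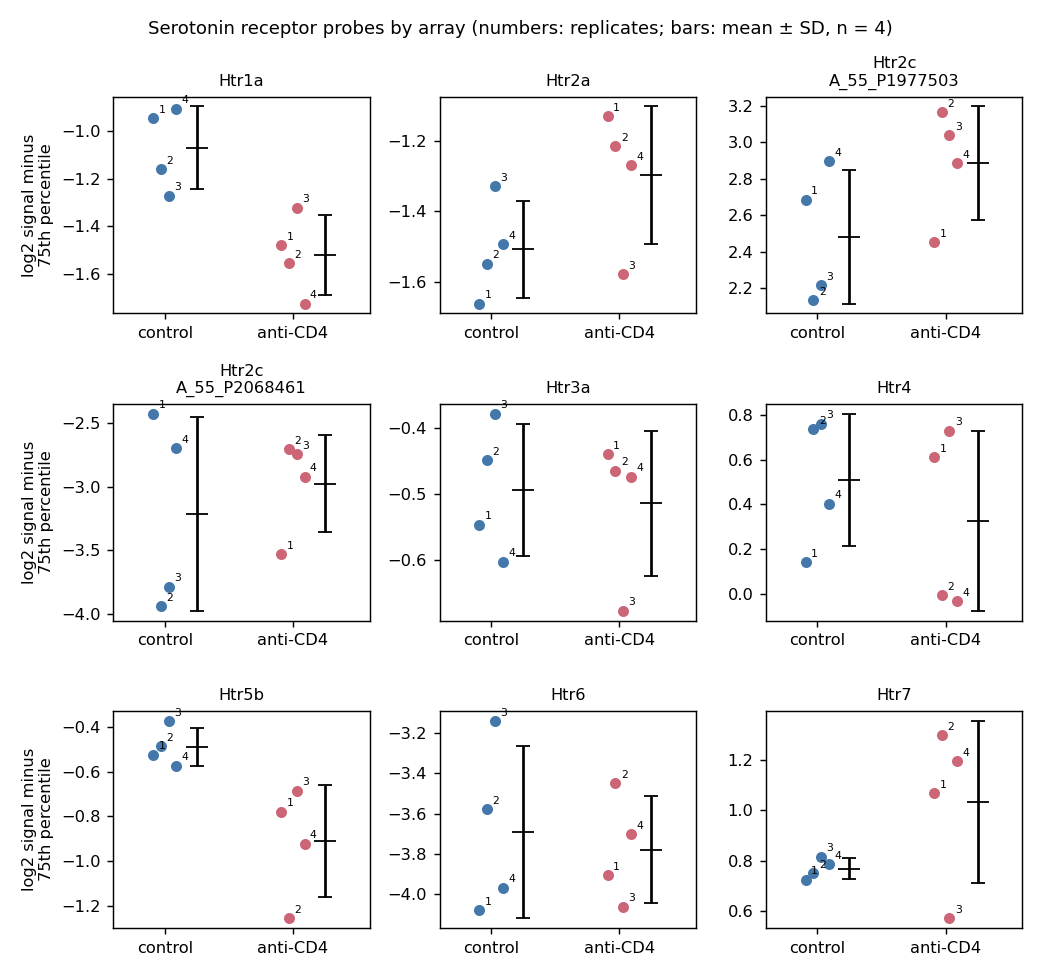
Log2 signal minus the array's 75th percentile (vertical axes, different ranges) of the 9 tested receptor probes in 4 control and 4 anti-CD4 arrays; points are arrays with their replicate numbers, and bars are the mean ± SD. The groups are separate for Htr1a and Htr5b, and anti-CD4 replicate 3 lies apart from the other 3 anti-CD4 arrays for Htr2a, Htr3a and Htr7.

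Among the Gi/o-coupled receptors, Htr1a, which inhibits pyramidal neurons of the hippocampus and also serves as the autoreceptor of raphe neurons, gave lower values in the anti-CD4 arrays. Its probe (A_52_P612368, chr13:106237236-106237295, plus strand) read -0.95, -1.16, -1.27 and -0.91 in control replicates 1 to 4. In anti-CD4 replicates 1 to 4 it read -1.48, -1.55, -1.32 and -1.72. Every anti-CD4 array lay below every control array, with replicate 3 of each group closest to the other group. The group means were -1.07 ± 0.17 and -1.52 ± 0.17 (SD, n = 4 each), a difference of -0.45 with a 95% confidence interval of -0.70 to -0.19. This is a 1.36-fold higher control level (unadjusted p = 0.00365, adjusted p = 0.243, limma; exact two-sided permutation p = 0.0286, the smallest that 4 against 4 arrays allow). The difference was -0.28 with normexp background correction and -0.19 in the authors' deposited values. With those deposited values, and with each array centred on its median, the groups overlapped.

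Htr5b, a receptor present in rodents, gave the other separated pair of groups. Its probe (A_51_P322115, chr1:123406629-123406688, minus strand) read -0.52, -0.49, -0.37 and -0.57 in the controls and -0.78, -1.26, -0.68 and -0.92 under anti-CD4. The control arrays were close together, whereas the anti-CD4 arrays spread from just below the controls to far below them in replicate 2. The means were -0.49 ± 0.09 and -0.91 ± 0.25 (SD, n = 4 each). The difference of -0.42, with a 95% confidence interval of -0.70 to -0.14, corresponds to 1.34-fold (unadjusted p = 0.00783, adjusted p = 0.253, limma; exact permutation p = 0.0286). The groups also stayed separate with median centring and in the authors' deposited values, where the difference was -0.33. Without anti-CD4 replicate 2 it was -0.31.

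Signal of dentate granule neurons moved with Htr5b and more closely with Htr4, the Gs-coupled receptor that excites hippocampal neurons. The mean of the 9 measured dentate markers, each centred on its own mean over the 8 arrays, was -0.06, 0.44, 0.16 and 0.02 in control replicates 1 to 4. In anti-CD4 replicates 1 to 4 it was 0.08, -0.46, 0.12 and -0.29. Replicates 2 and 4 of the anti-CD4 group therefore had the lowest dentate marker mean. Over the whole anti-CD4 group 8 of the 9 markers had a lower mean than in the controls, with no adjusted call. The exception was Calb1, which was higher by 0.43 (unadjusted p = 0.021, adjusted p = 0.308, limma). For Calb1, anti-CD4 replicates 2 and 4 lay above every control array. Prox1, the transcription factor of these neurons, read -0.81, -0.30, -0.72 and -0.71 in the controls and -0.95, -1.64, -0.62 and -1.43 under anti-CD4.

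Htr4 (A_55_P1990400, chr18:62627259-62627318, plus strand) read 0.14, 0.74, 0.76 and 0.40 in the controls and 0.61, -0.0069, 0.73 and -0.03 under anti-CD4. The groups overlapped. Anti-CD4 replicates 2 and 4 lay below all other arrays, and the next lowest were control replicates 1 and 4. The dentate marker mean put the same 4 arrays lowest, and so did the mean of the CA2 and CA3 markers. The difference of -0.19 had a 95% confidence interval of -0.67 to 0.30 (adjusted p = 0.738, limma). Without single arrays it ranged from -0.32, without anti-CD4 replicate 3, to -0.07, without anti-CD4 replicate 4 or replicate 2. CA1 marker means were -0.03 to 0.08 in controls and -0.14 to 0.02 under anti-CD4, and those of CA2 and CA3 were -0.12 to 0.28 and -0.23 to 0.05. With the dentate marker mean as a covariate, an alternative added after seeing the data, the difference was 0.16 for Htr4, -0.27 for Htr5b and -0.43 for Htr1a (adjusted p = 0.676, 0.482 and 0.425, limma).

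**Figure D2:**
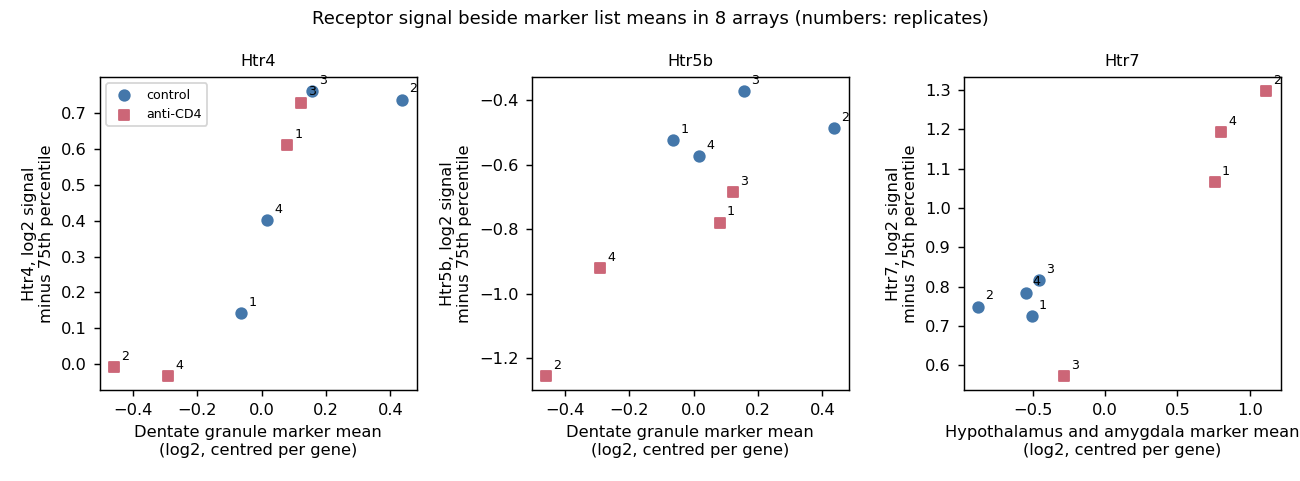
Htr4 and Htr5b against the mean of the dentate granule markers, and Htr7 against the mean of the hypothalamus and amygdala markers, in log2 units; circles are control arrays, squares anti-CD4 arrays, and numbers are replicates. Anti-CD4 replicates 2 and 4 are lowest on both axes for Htr4, and anti-CD4 replicate 3 lies near the controls on the marker axis for Htr7.

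Of the other Gs-coupled receptors, Htr7, found in hippocampus, thalamus and hypothalamus, was higher in 3 of 4 anti-CD4 arrays. Its probe A_55_P2100103 (chr19:36033339-36033398, minus strand) read 0.72, 0.75, 0.82 and 0.79 in the controls, a narrow range. The anti-CD4 replicates read 1.07, 1.30, 0.57 and 1.19. Replicates 1, 2 and 4 lay above all controls and replicate 3 below all of them. The means were 0.77 ± 0.04 and 1.03 ± 0.32 (SD, n = 4 each), and the difference of 0.26 (95% confidence interval -0.07 to 0.59) did not pass the test (adjusted p = 0.472, limma). Without anti-CD4 replicate 3 the difference was 0.42 (unadjusted p = 0.000711, adjusted p = 0.118, limma), and without anti-CD4 replicate 2 it was 0.18 (adjusted p = 0.715, limma). With the dentate marker mean as a covariate it was 0.11 (adjusted p = 0.822, limma).

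The same array was also the lowest of its group for hypothalamus and amygdala markers, but not for those of thalamus and habenula. The list of hypothalamus and amygdala genes had 9 of 12 genes measured, all with higher means in the anti-CD4 group, and its mean per array ranged from -0.88 to -0.46 in controls. In the anti-CD4 arrays it was 0.76, 1.11 and 0.80 in replicates 1, 2 and 4 and -0.28 in replicate 3. Trh, a hypothalamic peptide precursor, was the first gene of that list, and it differed by 4.58 (adjusted p = 0.222, limma). Of the other peptide genes of the list, Avp, Oxt and Agrp were detected on 3, 3 and 2 arrays and did not enter the mean. Pomc, Gal and Tac2 were detected on all 8 arrays and differed by 0.25, 0.04 and 0.47 (adjusted p = 0.335, 0.857 and 0.345, limma). The remaining measured genes Baiap3, Ngb, Esr1, Zcchc12 and Nnat differed by 1.99, 1.33, 1.24, 0.80 and 0.05 (adjusted p = 0.173, 0.255, 0.207, 0.244 and 0.723, limma). Esr1 was detected on 4 arrays only. An unadjusted p under 0.05 in limma was reached by 7 of the 9 genes, all higher, against 5.98% of all tested probes in that direction. The list was drawn up with earlier results of these data known, so this count cannot serve as a test of it. The mean of the thalamus and habenula markers, 8 of 12 measured, ranged from -0.25 to 0.09 in controls and was 0.13, 0.06, 0.12 and 0.11 in anti-CD4 replicates 1 to 4. Of its habenula genes, Pou4f1 and Gpr151 were detected on 0 arrays, whereas Gng8 and Chrnb4 were detected on all 8 and differed by -0.02 and 0.48 (adjusted p = 0.967 and 0.436, limma). The part of these markers in the Htr7 values was not tested.

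Htr6, which raises cyclic AMP and is known mainly from striatum and hippocampus, ranged from -4.08 to -3.14 in controls and from -4.07 to -3.45 in the anti-CD4 arrays. Its difference of -0.09 had a 95% confidence interval of -0.58 to 0.41 and took either sign when single arrays were left out.

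Of the Gq-coupled receptors, Htr2a, the receptor through which serotonergic hallucinogens act, followed the pattern of Htr7. Its probe (A_66_P120995, chr14:75106454-75106513, plus strand) read -1.66, -1.55, -1.33 and -1.49 in the controls and -1.13, -1.21, -1.58 and -1.27 under anti-CD4. Replicates 1, 2 and 4 lay above all controls, while replicate 3 lay within their range. The difference was 0.21 (95% confidence interval -0.05 to 0.47; adjusted p = 0.462, limma) and 0.30 without anti-CD4 replicate 3 (adjusted p = 0.208, limma). It was 0.10 with normexp background correction and 0.06 in the authors' deposited values. Striatal markers, 9 of 12 measured and 7 of them with higher means in the anti-CD4 group, had means per array of -0.58 to 0.01 in controls and -0.07 to 0.52 under anti-CD4, lowest there in replicate 3. Drd2 and Adora2a, which define one class of striatal neurons, were detected on 0 and 1 arrays. The part of these markers in the Htr2a values was not tested.

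Htr2c, the receptor of neurons whose highest expression in the brain is in the choroid plexus, varied more between arrays than most probes, and in both groups. The probe in the 3′ untranslated region read 2.68, 2.13, 2.22 and 2.90 in the controls and 2.45, 3.16, 3.04 and 2.88 under anti-CD4. Control replicates 2 and 3 and anti-CD4 replicate 1 were the 3 lowest. The coding probe A_55_P2068461 read -2.42, -3.94, -3.79 and -2.69 in the controls and -3.53, -2.70, -2.74 and -2.92 in the anti-CD4 arrays, with the same 3 arrays lowest. The probe at the stop codon was not well above background on those 3 arrays, so it gives them no order. The SD over all 8 arrays was 0.38 and 0.57 for the tested probes, above 91.6% and 97.4% of tested probes.

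These 3 arrays also held the least choroid plexus signal. Ttr, the transthyretin gene of choroid plexus epithelium, read 8.16, 2.72, -0.46 and 8.26 in the controls and 1.22, 7.60, 8.48 and 7.75 under anti-CD4. All 14 of 14 choroid plexus markers were measured, and their mean ranged from -3.47 to 1.85 in controls and from -2.52 to 2.39 in the anti-CD4 arrays. Each of the 14 had a higher mean in the anti-CD4 group, by 0.24 to 1.89, and none had an unadjusted p under 0.05. Control arrays were split evenly between high and low choroid signal, against 1 low array in the anti-CD4 group. The arrays fell into separate clusters, so no correlation is given.

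**Figure D3:**
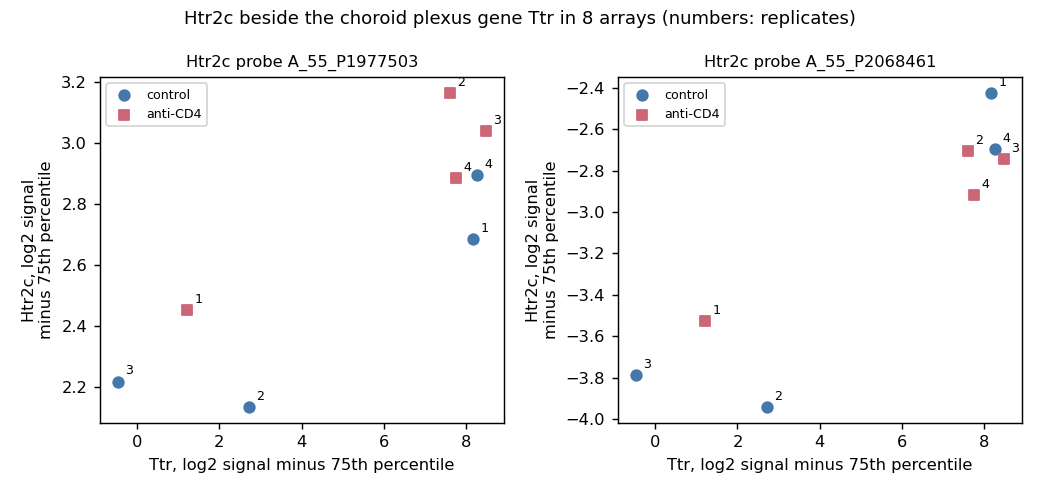
Signal of both tested Htr2c probes (vertical axes) against Ttr (horizontal axes), both as log2 signal minus the array's 75th percentile; circles are control and squares anti-CD4 arrays, with replicate numbers. Control replicates 2 and 3 and anti-CD4 replicate 1 are lowest in Ttr, at 2.72 or less, and lowest in both Htr2c probes.

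Between the groups the Htr2c probes differed by 0.40 (95% confidence interval -0.07 to 0.87) and by 0.24 (-0.59 to 1.06), with adjusted p = 0.451 and 0.804 in limma. With Ttr signal as a covariate the differences were 0.28 and 0.01 (adjusted p = 0.350 and 0.982, limma). With the dentate marker mean in its place they were 0.16 and -0.19 (adjusted p = 0.806 and 0.873, limma). The coding probe differed by -0.0056 without control replicate 2. The 4 genes whose pattern over the 8 arrays was nearest to the coding probe, out of 19597 named probes compared, were Crhr2, Cfap52, Spint2 and Arhgap28. After centring, their mean absolute differences from it were 0.10, 0.11, 0.12 and 0.12. Crhr2 encodes a receptor for corticotropin-releasing hormone peptides, Cfap52 a protein of motile cilia and Spint2 an inhibitor of serine proteases. Crhr2 read 0.35, -1.47, -1.09 and -0.03 in the controls and -0.73, 0.14, 0.04 and -0.0017 in the anti-CD4 arrays, with the same 3 arrays lowest.

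The channel subunit gene Htr3a, which marks a class of GABAergic interneurons, had the smallest SD over the 8 arrays among the tested receptor probes. Its probe (A_55_P2093336, chr9:48707773-48707832, minus strand) ranged from -0.60 to -0.38 in controls and from -0.68 to -0.44 in the anti-CD4 arrays. Only 19.1% of tested probes had a smaller SD over the 8 arrays. The difference of -0.02 had a 95% confidence interval of -0.20 to 0.16 (adjusted p = 0.935, limma). It turned to 0.01 with median centring, with array weights or with Ttr as a covariate. A list drawn up for interneurons of this class also holds broader genes, such as Gad1 and Gad2. Of its 12 genes 11 were measured, with 5 higher and 6 lower means under anti-CD4. The list mean per array was -0.07 to 0.0022 in controls and -0.12 to 0.08 in the anti-CD4 arrays. It was lowest in anti-CD4 replicate 3, as Htr3a was.

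**Figure D4:**
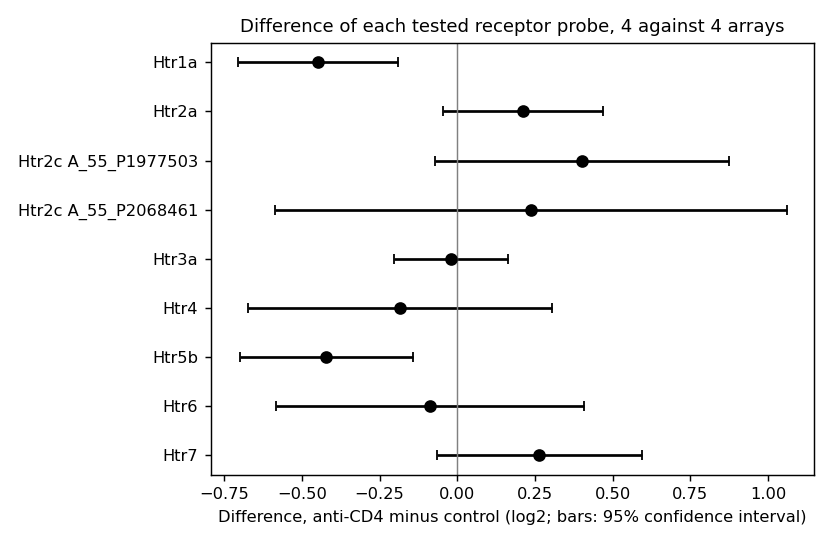
Difference between anti-CD4 and control arrays (log2, horizontal axis) for each of the 9 tested receptor probes; points are limma estimates and bars 95% confidence intervals. The intervals of Htr1a and Htr5b lie below 0, and the other 7 include it.

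Genes that make, store, transport and degrade serotonin were measured for 10 of 16 listed, with 7 higher means and 3 lower under anti-CD4, and none passed the adjusted threshold. Their median difference was 0.09, but leaving out anti-CD4 replicate 3 gave -0.0028 and leaving out replicate 2 gave 0.17. Ddc, the decarboxylase that makes serotonin and dopamine, read 0.24, 0.30, 0.36 and 0.24 in the controls and 0.55, 0.65, 0.39 and 0.60 in the anti-CD4 arrays, a difference of 0.26 (adjusted p = 0.250, limma). Its groups did not overlap, with anti-CD4 replicate 3 closest to the controls. Maob, a monoamine oxidase, differed by 0.25. The genes that define serotonin neurons themselves, Tph2, Slc6a4 and Fev, were detected on 0 arrays, as was the midbrain gene En1. The other listed markers of raphe neurons, Slc18a2 and Gchfr, were detected on all 8 arrays. They differed by -0.31 and 0.36 (adjusted p = 0.382 and 0.272, limma), and the groups of Gchfr did not overlap.

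Along the signalling arms below the receptors, 8 of 9 genes of the Gi/o arm were measured, 4 higher and 4 lower, with a median difference of 0.0048, which took either sign without single arrays (-0.03 without control replicate 1 to 0.05 without control replicate 2). Kcnj6, a GIRK channel subunit opened through HTR1A, read -1.20, -1.02, -1.28 and -1.38 in the controls and -1.51, -1.99, -1.39 and -1.96 in the anti-CD4 arrays. Its groups did not overlap, with control replicate 4 and anti-CD4 replicate 3 adjacent. Anti-CD4 replicates 2 and 4 were lowest, as they were for the dentate marker mean. The difference was -0.49 (adjusted p = 0.267, limma). Kcnj9, another GIRK subunit, differed by 0.20 (adjusted p = 0.443).

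Of the Gq arm 11 of 12 genes were measured, with 7 higher and a median of 0.06 (0.02 without control replicate 1, 0.08 without control replicate 2). The phospholipase C genes Plcb4 and Plcb1 differed by 0.42 and 0.31 (adjusted p = 0.251 and 0.331, limma), with groups that did not overlap. Of the Gs arm all 19 were measured, with 12 higher and a median of 0.06 (0.03 without control replicate 2, 0.08 without anti-CD4 replicate 3). Rapgef4, a cyclic AMP sensor that activates Rap proteins, read 0.01, 0.03, 0.02 and 0.18 in the controls and -0.42, -0.24, -0.31 and -0.30 in the anti-CD4 arrays. Both groups were tight and separate, and the difference of -0.38 had an adjusted p of 0.173 in limma. Prkar2b, a regulatory subunit of protein kinase A, differed by 0.37 (adjusted p = 0.294). Among 12 receptor partner proteins, Rgs19 and Fyn differed by -0.21 and -0.20 (adjusted p = 0.335 and 0.384), and the median was 0.03 (0.0012 without anti-CD4 replicate 2, 0.05 without anti-CD4 replicate 3).

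Over all these lists 61 of 72 genes were measured, and the anti-CD4 mean was above the control mean for 39 and below it for 22. None passed the adjusted threshold, and 11, or 18%, had an unadjusted p under 0.05, beside 13% of all tested probes. The groups did not overlap for 7 of the 61, beside 8.21% of all tested probes. These were Ddc, Kcnj6, Plcb1, Plcb3, Plcb4, Rapgef4 and Rgs19.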

How the data were processed

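Per the file headers, the deposited scanner files hold intensity values of Agilent Feature Extraction 10.7.3.1 on design 028005, detrended and background-corrected within each array by the software and not normalized between arrays. The authors' deposited value table holds log2 values. Limma is listed among the tools of the submitters' processing notes; how the table was made beyond that was not given in the labels. Groups and replicate numbers come from the sample titles. Control spots were left out, log2 signals of a probe's spots were averaged without outlier-flagged spots, and each array's 75th percentile was subtracted. The 29403 probes well above background on at least 4 arrays were compared with limma 3.58.1 in R 4.3.3 (lmFit, eBayes, two-sided, Benjamini-Hochberg over all of them, threshold 0.05), and single probes also by exact permutation over 70 assignments. Probes were kept apart; a listed gene was read from its brightest tested probe. The fit was tested on simulated data. The members and lists were chosen with earlier results of these data known. From each pathway list the rule named every gene past the threshold or else those with the smallest p, at most 2, and from a marker list its first tested gene. The first tested genes not given above are Vip, Wfs1, Pcp4, Prkcd and Drd1. They differed by 0.26, 0.10, 0.13, 0.21 and 0.21 (adjusted p = 0.542, 0.592, 0.608, 0.656 and 0.595, limma), with groups that overlapped. Other marker genes named, and the order of arrays in each list, were picked after their values were seen. Alternatives covered normalization, background correction, the authors' table, filters, outlier flags, the replicate block, spread estimates, covariates, a threshold of 0.1 and each array left out. The number of arrays limits the precision.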

Additional observations from a re-analysis of the deposited data

Results flagged for a closer look

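For Htr3a, anti-CD4 replicate 3 read -0.6761, apart from the rest of its group, whose values ran from -0.4735 to -0.4398. Such a gap was looked for in 36 sets of 4 arrays and found in 1 of them (2.78%). By chance about 1 set in 20 would show one.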

How the results depend on the processing

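The direction of Htr1a, Htr2a, Htr5b, Htr7 and the Htr2c probe A_55_P1977503 held under every alternative run, and no receptor probe passed the adjusted threshold under any. Over the alternatives the smallest adjusted p was 0.142 for Htr1a, 0.138 for Htr5b and 0.118 for Htr7. Htr3a (-0.02) was 0.014 with median centring, 0.0069 with array weights and 0.013 with Ttr as a covariate. With the dentate marker mean as a covariate, added after seeing the data, Htr4 was 0.160 and the Htr2c probe A_55_P2068461 was -0.190, while Htr7 moved from 0.26 to 0.11 and the Htr2c probe A_55_P1977503 from 0.40 to 0.16. Leaving out 1 array gave -0.32 to -0.066 for Htr4, 0.18 to 0.42 for Htr7, -0.056 to 0.035 for Htr3a, -0.22 to 0.097 for Htr6 and -0.0056 to 0.50 for the Htr2c probe A_55_P2068461. The count of all probes past the threshold, 0, was 2 with the authors' table, 2 with trended robust eBayes and 1 with the Ttr covariate, and 0 to 2 without single arrays (2 without anti-CD4 replicate 3). Unadjusted p under 0.05 was reached by 3812 probes, and by 2719 to 4612 without single arrays. Receptor probes with separate groups numbered 1 with median centring and 1 with the authors' table, and 2 to 4 without single arrays, 4 without anti-CD4 replicate 3. Fewer arrays separate more easily, and the share over all probes is not given for these settings. The pathway genes past the threshold numbered 0 to 0. With the replicate number as a block, Htr1a and Htr5b differed by -0.45 and -0.42 (adjusted p = 0.465 and 0.446, limma), and 2763 probes had an unadjusted p under 0.05. Same-numbered samples correlated at -0.44, -0.28, -0.31 and 0.28 in their deviations from the group means. Such correlations cannot decide whether the samples were paired. Same-numbered arrays of both groups lay in the same slide column. Htr6 gave no value where detection on all 8 arrays was asked for. Signal over background limits Htr1b, Htr5a and Htr6.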

Other observations

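Other serotonin receptor genes on the array were Htr1d, Htr1f, Htr2b and Htr3b. Htr1f, a Gi/o-coupled receptor, was detected on all 8 arrays and read -3.19, -2.86, -2.86 and -3.32 in the controls and -2.69, -2.76, -3.13 and -3.03 under anti-CD4. The groups overlapped, with a difference of 0.16 (adjusted p = 0.660, limma). Htr2b was detected on 1 array, and Htr1d and Htr3b, the partner subunit of HTR3A, on 0.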
